A study of Mus musculus with 9 samples.

Results

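The comparison described here sets the ProNa group against the CON group of an RNA sequencing study of RAW264.7 cells, a murine macrophage line that derives from a tumour raised with the Abelson leukaemia virus. It takes in 6 of the study's 9 samples, 3 titled ProNa and 3 titled CON, and the 3 samples titled LPS serve as a point of reference. Samples were placed in their groups by title, and no measured value was used to choose them. ProNa is read here as sodium propionate, although the labels do not expand the name. A single treatment text stands with every sample: cells were grown with or without ProNa at 1 mM for 24 h and then received lipopolysaccharide (LPS) at 100 ng/mL for 12 h. From the titles, CON is read as cells that received neither agent, LPS as cells that received LPS alone, and ProNa as cells that received ProNa and then LPS. The labels do not state this for each sample, and none of the 9 samples is titled as ProNa without LPS, so the comparison of ProNa with CON holds the response to both agents at once. All groups share the cell line, which is a single immortalised line, and the extraction text speaks of colonic segments where the other labels name the cell line.

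Macrophages sense LPS, a component of the outer membrane of Gram-negative bacteria, through Toll-like receptor 4. The receptor signals through MyD88 to the transcription factor NF-kB, which drives cytokine and chemokine genes, and through TRIF to IRF3, which drives type I interferon and, through the interferon receptor, the interferon-stimulated genes. Activated macrophages also leave the cell cycle, shift their metabolism and lower genes of their resting state. Propionate is a short-chain fatty acid made by gut bacteria from fibre. It is known as a ligand of G protein-coupled receptors, as an inhibitor of histone deacetylases and as a substrate that enters the citric acid cycle through propionyl-CoA.

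The values are the authors' mean FPKM (fragments scaled by the length of the transcript and the total of mapped fragments) of each group, summed here over the transcripts of a gene, and the log2 fold changes and adjusted p-values of the authors' deposited table. Columns of single libraries carry names that no label gives and were not used, so neither an SD nor the number of samples showing a direction is given, and the depth of the libraries is unknown. A gene was called changed where its adjusted p in the authors' deposited table was under 0.05. The labels do not state whether separate cultures gave the 3 samples of each group, so these p-values measure only the spread between samples, which may be technical. The table prints some adjusted p-values as 0 where they are too small for its format. Where an interval is given, it is a 95% interval derived here from the deposited log2 fold change and p-value on the assumption of a Wald test. Over the genes tested the median log2 change was 0.01 in the authors' deposited table and -0.31 by the ratio of mean FPKM, so a small positive change of the table is not always a higher mean FPKM. Counts given after centring use the log2 fold changes of the table lowered by this difference of 0.32, with p-values computed anew from the Wald errors. The FPKM of a gene include transcripts that StringTie assembled, and for some named genes the values over reference transcripts alone are given.

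ProNa and CON differed in most of the genes that were measured. Of 12740 genes with a mean of at least 0.5 FPKM over the 2 groups and an adjusted p, 9311 were called by the authors' deposited table, a background of 73.1%. Of all tested, 4759 were higher in ProNa (37.4%) and 4552 were lower (35.7%). After centring that split was 3395 higher and 6227 lower, or 35.3% higher among those counted in place of 51.1%. At least 4-fold changes were called for 1779 genes (14%), 917 higher (7.2%) and 862 lower (6.77%), and 317 and 228 of them were at least 16-fold from CON. The share called rose with the level of the gene, from 47.5% at a mean of 0.5 to 2 FPKM to 87.6% at 50 to 200 FPKM, and was 87.4% at 200 FPKM or more.

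The change was also seen in the make-up of the transcript pool. The 917 genes called at least 4-fold higher made up 2.69% of the summed FPKM in CON and 22.9% in ProNa, beside 22.6% in LPS. The 862 genes called at least 4-fold lower went from 5.81% of the summed FPKM in CON to 0.738% in ProNa, beside 0.566% in LPS. Their choice by this contrast fixes the direction of both sums, which are given as a description. A set of 53 called genes lay under 0.5 FPKM in CON and at 10 FPKM or more in ProNa, and 44 of them were also at 10 FPKM or more in LPS. In the opposite direction 39 called genes lay at 10 FPKM or more in CON and under 0.5 FPKM in ProNa, and 0 of those were at 10 FPKM or more in LPS.

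The genes at both ends are well known in macrophages. Lcn2 (ENSMUSG00000026822), which encodes the siderophore-binding protein lipocalin 2, stood at 0.08 FPKM in CON, 2004 FPKM in LPS and 879.9 FPKM in ProNa. Csf3 (ENSMUSG00000038067), the granulocyte colony-stimulating factor, stood at 0.0167 FPKM in CON, 859 FPKM in LPS and 627 FPKM in ProNa. Both were close to 0 in CON, so their folds depend on how a value near 0 is treated and are not given. Rsad2 (ENSMUSG00000020641), the interferon-induced antiviral enzyme viperin, stood at 3.57 FPKM in CON, 721 FPKM in LPS and 1359.7 FPKM in ProNa, and its log2 fold change against CON in the authors' deposited table was 9.05 (adjusted p listed as 0). Downward, Csf1r (ENSMUSG00000024621), the receptor for the macrophage growth factor CSF1, stood at 888 FPKM in CON, 27.7 FPKM in LPS and 53.1 FPKM in ProNa, with a log2 fold change of -3.27 (adjusted p listed as 0) in the authors' deposited table. Mki67 (ENSMUSG00000031004), the proliferation marker Ki-67, stood at 46.8 FPKM in CON, 0.68 FPKM in LPS and 0.563 FPKM in ProNa, with a log2 fold change of -5.99 (adjusted p listed as 0) in the authors' deposited table. These 5 genes were given as marks of this comparison, so their direction is a check on the groups. All of them lay far from CON in both treated groups. Between ProNa and LPS they did not move alike: in the authors' deposited table the log2 fold change of ProNa against LPS was -1.06 for Lcn2, -0.32 for Csf3, 1.04 for Rsad2 and 1.01 for Csf1r, all called, and -0.18 for Mki67 (adjusted p = 0.63).

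By the ratio of mean FPKM plus 0.5, the 10 highest genes in ProNa were Lcn2, Csf3, Cstdc4, Ptgs2, Il1b, Cxcl2, Ccl2, Acod1, Rsad2 and S100a8. Ptgs2, the inducible cyclooxygenase that starts prostaglandin synthesis, stood at 1.16 FPKM in CON, 1125 FPKM in LPS and 1148 FPKM in ProNa. Il1b, the cytokine interleukin 1 beta, stood at 0.113 FPKM in CON, 225 FPKM in LPS and 293 FPKM in ProNa. Cxcl2 and Ccl2 are chemokines that draw neutrophils and monocytes. Cxcl2 stood at 5.21 FPKM in CON, 3914 FPKM in LPS and 2469.7 FPKM in ProNa, and Ccl2 at 0.953 FPKM in CON, 1059 FPKM in LPS and 625 FPKM in ProNa, so both lay below the LPS mean in ProNa and far above CON. Acod1, which makes the antimicrobial metabolite itaconate, stood at 2.73 FPKM in CON, 954 FPKM in LPS and 1147 FPKM in ProNa. Cstdc4 belongs to a family of close stefin copies whose reads can be shared, so its value of 429 FPKM in ProNa is uncertain. S100a8, a subunit of calprotectin, had means of 0.46, 191 and 186 FPKM in CON, LPS and ProNa.

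The 10 lowest were Pclaf, Ighm, Sema4g, Top2a, Gpr183, Alox5, Pltp, Cx3cr1, Ube2c and Kbtbd11. Pclaf, Top2a and Ube2c serve DNA replication and mitosis. Top2a, DNA topoisomerase II alpha, stood at 82.4 FPKM in CON, 0.733 FPKM in LPS and 0.673 FPKM in ProNa. Cx3cr1, the receptor for fractalkine that marks resident macrophages and microglia, stood at 184 FPKM in CON, 0.71 FPKM in LPS and 2.84 FPKM in ProNa, and the difference between ProNa and LPS was called in the authors' deposited table, with a log2 fold change of 2.12 (adjusted p = 1.8e-17). Gpr183, a receptor for oxysterols, stood at 86.7 FPKM in CON, 0.537 FPKM in LPS and 0.787 FPKM in ProNa. Alox5, the 5-lipoxygenase that starts leukotriene synthesis, stood at 58.4 FPKM in CON, 1.07 FPKM in LPS and 0.47 FPKM in ProNa, and in the authors' deposited table ProNa against LPS had no call (adjusted p = 0.07). Pltp, the phospholipid transfer protein, stood at 95.4 FPKM in CON, 0.81 FPKM in LPS and 1.15 FPKM in ProNa. Ighm, the constant region of the immunoglobulin mu heavy chain, went from 222 FPKM in CON to 2.32 in ProNa. Sema4g and Kbtbd11 had means of 40.1 and 107 FPKM in CON against 0.0334 and 1.81 FPKM in ProNa.

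**Figure D1:**
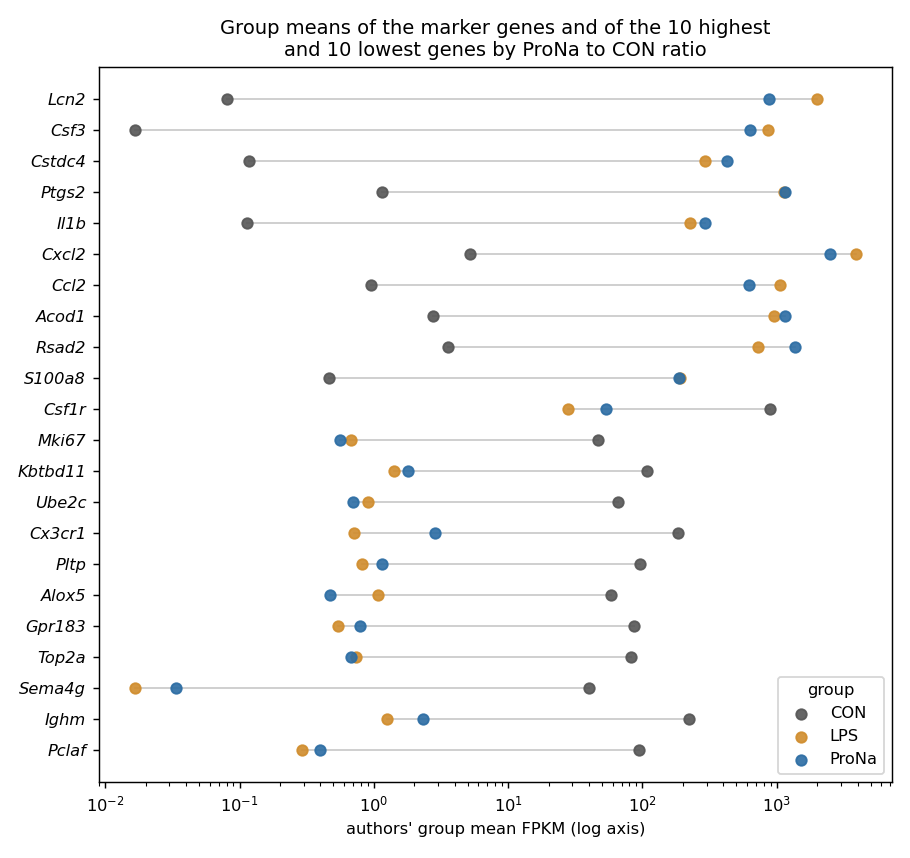
Authors' group mean FPKM on a log axis for the 5 marker genes and the 10 highest and 10 lowest genes by the ratio of ProNa to CON. Each row is a gene and each point a group, with no error bars because only group means were used. For every gene in the plot the LPS and ProNa points lie on the same side of the CON point.

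The most abundant transcripts changed as well. Spp1, which encodes the secreted phosphoprotein osteopontin, stood at 1959.9 FPKM in CON, 22331 FPKM in LPS and 26114 FPKM in ProNa and was the highest gene in ProNa. Fth1 and Ftl1, the heavy and light chains of the iron store ferritin, reached 24007 and 17806 FPKM in ProNa from 3829.6 and 3136 in CON. Together these 3 genes made up 1.13% of summed FPKM in CON and 8.56% in ProNa, beside 8.95% in LPS. Prdx1, a peroxiredoxin that removes hydrogen peroxide, stood at 429 FPKM in CON, 7754 FPKM in LPS and 8632 FPKM in ProNa, and Odc1, the first enzyme of polyamine synthesis, at 115 FPKM in CON, 3134 FPKM in LPS and 5050.0 FPKM in ProNa. Ccl3, a chemokine for monocytes and other leukocytes, stood at 323 FPKM in CON, 6767 FPKM in LPS and 5917 FPKM in ProNa. The largest losses in FPKM were those of mt-Atp8, Lyz2, S100a4, mt-Co1 and Cst3. Lyz2, the lysozyme of macrophages, stood at 9719 FPKM in CON, 661 FPKM in LPS and 1586 FPKM in ProNa, S100a4 at 7256 FPKM in CON, 468 FPKM in LPS and 872 FPKM in ProNa, and Cst3, the protease inhibitor cystatin C, at 5255 FPKM in CON, 598 FPKM in LPS and 1173 FPKM in ProNa. Over reference transcripts alone Cst3 stood at 214, 83.3 and 153 FPKM in CON, LPS and ProNa, so most of its level and of its loss lay in assembled transcripts. All of Lyz2, S100a4 and Cst3 were called higher in ProNa than in LPS by the authors' deposited table, with log2 fold changes of 1.39, 1.03 and 1.10. Eef1a1 and Rplp1, parts of the translation machinery, were also among the 10 highest in ProNa, at 6809 and 3744 FPKM. Rplp1 was not called (0.09 in the authors' deposited table, interval -0.01 to 0.20), and its mean FPKM was lower than the 4640.0 FPKM of CON.

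Promoter sequences of 5 genes are shown because these genes stand for groups that moved together: Cxcl2 for chemokines, Rsad2 and Ifit1 for interferon-stimulated genes, and Mki67 and Top2a for mitosis. They are RefSeq windows of build GRCm38.p6 that hold the 250 bases before the annotated start site, written 5′ to 3′ on the strand of the gene. Capitals mark every match on either strand to 1 motif per gene, and the genes were chosen after the matches were seen. The motifs are GGGNNTTTCC, a form of the kappaB site that NF-kB binds (Cxcl2), GAAANNGAAA, a form of the interferon-stimulated response element (Rsad2 and Ifit1), and TTTGAA, the cell cycle homology region known from late cell cycle genes (Mki67 and Top2a).
Cxcl2 (chr5:90903649-90903898, strand +): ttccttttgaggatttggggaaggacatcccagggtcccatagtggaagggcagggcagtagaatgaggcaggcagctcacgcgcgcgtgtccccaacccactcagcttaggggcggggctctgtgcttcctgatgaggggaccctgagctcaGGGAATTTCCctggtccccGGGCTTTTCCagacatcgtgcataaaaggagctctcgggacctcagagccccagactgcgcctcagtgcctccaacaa
Rsad2 (chr12:26456453-26456702, strand -): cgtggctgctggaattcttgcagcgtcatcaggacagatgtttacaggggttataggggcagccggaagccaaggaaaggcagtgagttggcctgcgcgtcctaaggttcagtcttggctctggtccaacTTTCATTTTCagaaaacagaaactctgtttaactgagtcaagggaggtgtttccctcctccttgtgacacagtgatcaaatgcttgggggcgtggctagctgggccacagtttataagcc
Ifit1 (chr19:34640639-34640888, strand +): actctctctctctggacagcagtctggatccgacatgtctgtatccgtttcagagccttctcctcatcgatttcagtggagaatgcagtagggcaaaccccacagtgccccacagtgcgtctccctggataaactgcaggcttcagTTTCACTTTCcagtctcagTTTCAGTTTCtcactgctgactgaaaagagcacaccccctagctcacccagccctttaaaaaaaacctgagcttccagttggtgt
Mki67 (chr7:135716380-135716629, strand -): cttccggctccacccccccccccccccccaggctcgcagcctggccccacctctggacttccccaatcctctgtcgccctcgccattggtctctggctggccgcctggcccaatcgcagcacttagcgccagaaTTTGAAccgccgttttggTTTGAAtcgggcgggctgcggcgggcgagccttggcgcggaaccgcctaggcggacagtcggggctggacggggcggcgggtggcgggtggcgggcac
Top2a (chr11:99024190-99024439, strand -): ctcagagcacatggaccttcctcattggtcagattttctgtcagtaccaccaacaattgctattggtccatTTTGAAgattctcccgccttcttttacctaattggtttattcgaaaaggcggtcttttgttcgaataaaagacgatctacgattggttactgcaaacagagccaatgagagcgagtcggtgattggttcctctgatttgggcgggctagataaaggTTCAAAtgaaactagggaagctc
Over the full windows of 300 bases, which run 50 bases past the start site, GGGNNTTTCC was found in 440 of 27025 promoters (1.63%), GAAANNGAAA in 944 (3.49%) and TTTGAA in 4906 (18.2%), with 1 window per gene. Of 70 interferon-stimulated genes 57 had a window, and 30 of 57 held GAAANNGAAA (52.6%). Of 54 mitosis genes 44 had a window, of which 32 held TTTGAA (72.7%), and of 44 DNA replication genes 36 had a window, of which 5 held it (13.9%). TTTGAA was also held by 18 of the 57 interferon-stimulated genes (31.6%). Of 14 chemokines 8 had a window, and 3 of 8 held GGGNNTTTCC. Among the 9253 tested genes with a window, 1.69% held GGGNNTTTCC, 3.26% GAAANNGAAA and 12.6% TTTGAA. A match describes the letters in these windows and is no measured site, and the promoter of Csf3 was not analysed here.

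Secreted signals of inflammation stayed high in ProNa. Of 18 inflammatory cytokines that passed the filter, 16 were higher than in CON and 2 lower by the authors' deposited table (median log2 change of 3.84), where the median over all tested genes was 0.01. Tnf, tumour necrosis factor, stood at 36.6 FPKM in CON, 324 FPKM in LPS and 424 FPKM in ProNa, and Il1rn, the antagonist of the interleukin 1 receptor, at 42.9 FPKM in CON, 1544 FPKM in LPS and 1579 FPKM in ProNa. Osm, oncostatin M, stood at 1.13 FPKM in CON, 31 FPKM in LPS and 25.1 FPKM in ProNa, and Ebi3, a subunit of interleukins 27 and 35, at 32.2 FPKM in CON, 86.1 FPKM in LPS and 104 FPKM in ProNa. In ProNa against LPS 11 of the 18 were called higher and 2 lower by the authors' deposited table, where 17.5% and 15% of all genes tested were. Tnf, Ebi3 and Il1rn were among the 11, with log2 fold changes of 0.52, 0.41 and 0.24. Ltb and Il15 rose by more, at 1.48 and 1.27. The cytokines lower in ProNa than in LPS were Il1a and Il6, with -0.65 and -0.95 in the authors' deposited table and means of 0.0667, 84.1 and 49.1 FPKM for Il1a and 0.01, 58.7 and 28 FPKM for Il6 in CON, LPS and ProNa. Tnfsf9 and Ltb, 2 members of the TNF family, were the ones lower in ProNa than in CON, at 113, 38 and 35.7 FPKM and 12.6, 1.56 and 4.26 FPKM in the same order.

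Chemokines followed, with 12 of 14 higher, 1 lower and 1 not called in the authors' deposited table and a median log2 fold change of 4.89. Ccl4, a chemokine of the same cluster as Ccl3, stood at 117 FPKM in CON, 3015 FPKM in LPS and 3205 FPKM in ProNa. Ccl9 stood at 576 FPKM in CON, 709.5 FPKM in LPS and 1369 FPKM in ProNa, and it was one of 5 chemokines called higher in ProNa than in LPS by the authors' deposited table, while 5 were called lower, Cxcl2 and Ccl2 among them. Cxcl16, a membrane-bound chemokine and scavenger receptor, was lower than in CON at 56.3, 23.6 and 25.2 FPKM in the 3 groups. Of 14 colony-stimulating and growth factors 13 were higher and 1 lower in ProNa than in CON by the authors' deposited table (median log2 fold change 3.94). Pdgfb, a platelet-derived growth factor chain, stood at 18.9 FPKM in CON, 24.1 FPKM in LPS and 48.3 FPKM in ProNa, Hbegf, a ligand of the EGF receptor, at 0.137 FPKM in CON, 7.18 FPKM in LPS and 13.2 FPKM in ProNa, and Tgfb1, transforming growth factor beta 1, at 94.4 FPKM in CON, 118 FPKM in LPS and 197 FPKM in ProNa. The member that was lower was Igf1, insulin-like growth factor 1, at 10.1, 2.27 and 3.17 FPKM in CON, LPS and ProNa.

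Signalling proteins and their inhibitors were also up. In the list of NF-kB subunits and feedback inhibitors 26 of 30 were higher and 2 lower in ProNa than in CON by the authors' deposited table (median log2 change of 2.13). Socs3, an inhibitor of cytokine receptor signalling, stood at 1.03 FPKM in CON, 78.7 FPKM in LPS and 102 FPKM in ProNa. Dusp1 and Dusp5, phosphatases of MAP kinases, stood at 125 and 86.3 FPKM in ProNa from 2.16 and 0.847 in CON. Ier3, an early response gene, stood at 10.5 FPKM in CON, 589 FPKM in LPS and 602 FPKM in ProNa. Cyld and Birc3 were the members called lower, with log2 fold changes of -0.25 and -0.34 in the authors' deposited table. Among 22 immediate early transcription factors 18 were higher and 3 lower by the authors' deposited table (median 1.55). Fosl1 stood at 3.42 FPKM in CON, 76.6 FPKM in LPS and 60.7 FPKM in ProNa, Atf3 at 28.6 FPKM in CON, 332 FPKM in LPS and 274 FPKM in ProNa and Myc at 0.903 FPKM in CON, 26.6 FPKM in LPS and 30.4 FPKM in ProNa. The members that were lower were Fos, Egr3 and Klf4, and Fos stood at 60.0, 10.3 and 12.4 FPKM in CON, LPS and ProNa.

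Effectors of classical activation, the products by which macrophages kill microbes and alert T cells, were higher for 23 of 26 members and lower for 2 by the authors' deposited table (median log2 change of 4.35). Cd40, the co-stimulatory receptor, stood at 3.12 FPKM in CON, 174 FPKM in LPS and 211 FPKM in ProNa. The exceptions were Icam1, an adhesion molecule, at 47.7, 9.69 and 12.3 FPKM in CON, LPS and ProNa, and Hp, haptoglobin, at 1.28, 0.11 and 0.0933 FPKM. Cfb, complement factor B, was not called. Of 19 matrix proteases and inhibitors 13 were higher and 4 lower by the authors' deposited table (median 2.05). Plaur, the urokinase receptor, stood at 37 FPKM in CON, 316 FPKM in LPS and 609 FPKM in ProNa, Adam8 at 156 FPKM in CON, 333 FPKM in LPS and 431 FPKM in ProNa and Ctsl, cathepsin L, at 377 FPKM in CON, 1158 FPKM in LPS and 1709 FPKM in ProNa. Those called lower were Timp2, Adam17, Ctss and Ctsc.

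Interferon-stimulated genes stood further from CON in ProNa than in LPS. Of 73 entries 70 passed the filter, and 69 were higher in ProNa than in CON and 1 lower by the authors' deposited table (median log2 change of 2.22). In LPS against CON 57 of them were called higher and 4 lower by the authors' deposited table (median log2 change of 1.24), where 36% and 34.7% of all genes tested were. Against LPS itself all 70 were called higher in ProNa by the authors' deposited table, where 17.5% of all genes tested were, and the median log2 fold change was 1.06. The list was chosen with results of these data known, so its count is a description. Both comparisons with CON share the CON samples, and those with LPS share the LPS samples.

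Enzymes and sensors that act on viral nucleic acid were among them. Cmpk2, a mitochondrial nucleotide kinase next to Rsad2 in the genome, stood at 15.5 FPKM in CON, 308 FPKM in LPS and 677 FPKM in ProNa. Oasl1, a relative of the oligoadenylate synthetases, stood at 61.4 FPKM in CON, 927 FPKM in LPS and 1533 FPKM in ProNa, and Ifi209, of the interferon-inducible p200 family, at 1.22 FPKM in CON, 32.1 FPKM in LPS and 82.8 FPKM in ProNa. Ifit1, which binds foreign RNA ends, stood at 5.11 FPKM in CON, 80.3 FPKM in LPS and 195 FPKM in ProNa, and Isg15, a ubiquitin-like modifier, at 62.4 FPKM in CON, 941 FPKM in LPS and 1840.2 FPKM in ProNa. The level of Ifit1 rests on assembled transcripts, with 0, 0.333 and 0 FPKM over reference transcripts alone. Mx1, a dynamin-like antiviral GTPase, stood at 1.49 FPKM in CON, 1.78 FPKM in LPS and 11.8 FPKM in ProNa. Its log2 fold change in ProNa against LPS was 3.16 in the authors' deposited table (adjusted p = 2.2e-49). The p200 and Ifit families hold close copies whose reads can be shared, so single values within them are less certain.

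Stat2 and Irf7, transcription factors of the pathway, showed the same order of group means. Stat2 stood at 28.9 FPKM in CON, 50.9 FPKM in LPS and 82.5 FPKM in ProNa and Irf7, the factor that amplifies interferon production, at 86.8 FPKM in CON, 279 FPKM in LPS and 679 FPKM in ProNa. ProNa against LPS was called for both in the authors' deposited table, with log2 fold changes of 0.78 and 1.40. The member below CON was Slfn9, of the Schlafen family, at 10.2 FPKM in CON, 1.34 FPKM in LPS and 3.34 FPKM in ProNa. After centring 67 members were higher and 1 lower than CON.

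Antigen presentation genes also rose, and by less. Of 24 that passed, 21 were higher and 1 lower in ProNa than in CON by the authors' deposited table. Over all genes tested that table called 37.4% higher and 35.7% lower. The median log2 change of the list was 0.92, against 0.23 in LPS. In ProNa against LPS 20 were called higher and 1 lower by the authors' deposited table, where 17.5% and 15% of all genes tested were. The member called lower than in LPS was Calr, the chaperone calreticulin. H2-D1, a class I heavy chain, stood at 663 FPKM in CON, 813 FPKM in LPS and 1262 FPKM in ProNa. Tap1, a subunit of the peptide transporter, stood at 27.1 FPKM in CON, 50.2 FPKM in LPS and 97 FPKM in ProNa, and Psme2, a subunit of the proteasome activator, at 145 FPKM in CON, 207 FPKM in LPS and 279 FPKM in ProNa. Erap1, a peptide-trimming protease, was the member that was lower than in CON, at 36.9, 17.4 and 20.7 FPKM in CON, LPS and ProNa.

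Toll-like receptors were called in both directions, as all genes were. Of 23 Toll-like receptors and adaptors 11 were higher and 11 lower in ProNa than in CON by the authors' deposited table, beside 37.4% and 35.7% of all genes tested, and after centring 8 and 12. Tlr2, the receptor for bacterial lipopeptides, stood at 87.1 FPKM in CON, 28.2 FPKM in LPS and 27.1 FPKM in ProNa, and Tlr7, which senses single-stranded RNA, at 85.9 FPKM in CON, 15.3 FPKM in LPS and 27.8 FPKM in ProNa. Ticam1, which encodes the adaptor TRIF, stood at 8.04 FPKM in CON, 44.3 FPKM in LPS and 28.6 FPKM in ProNa, and Cd180, a relative of TLR4, at 54.3 FPKM in CON, 96.5 FPKM in LPS and 98.5 FPKM in ProNa. In the list of inflammasome and cell death genes 19 of 28 were higher and 5 lower by the authors' deposited table (median 0.92). Casp1, the protease that matures interleukin 1 beta, stood at 90.5 FPKM in CON, 169 FPKM in LPS and 228 FPKM in ProNa, and Mlkl, the effector of necroptosis, at 7.56 FPKM in CON, 68.5 FPKM in LPS and 89.6 FPKM in ProNa. Those lower included Bcl2, Pmaip1 and Bbc3, parts of apoptosis, with log2 fold changes of -0.84, -0.45 and -0.22 in the authors' deposited table.

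Genes of the macrophage lineage were called in each direction at shares close to those of all genes. Of 39 factors and receptors 17 were higher and 17 lower in ProNa than in CON by the authors' deposited table, where 37.4% and 35.7% of all genes tested were, and after centring 15 and 20. The losses held several receptors and secreted proteins of resting cells. Trem2, a lipid-sensing receptor, stood at 659 FPKM in CON, 66.9 FPKM in LPS and 91.7 FPKM in ProNa, and its adaptor Tyrobp at 1479 FPKM in CON, 403 FPKM in LPS and 513 FPKM in ProNa. Spi1, the lineage factor PU.1, was called higher and stood at 257 FPKM in CON, 329 FPKM in LPS and 351 FPKM in ProNa, and Cd53, a tetraspanin of leukocytes, at 185 FPKM in CON, 619 FPKM in LPS and 775 FPKM in ProNa. Compared with LPS, 25 of 37 tested members were called higher in ProNa and 5 called lower by the authors' deposited table, where 17.5% and 15% of all genes tested were. Csf1r and Lyz2, named above, and Fcgr1, the high-affinity receptor for IgG, were among the 25. Fcgr1 stood at 39.5 FPKM in CON, 41.7 FPKM in LPS and 106 FPKM in ProNa.

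Among 26 scavenger and lectin receptors 15 were higher and 8 lower by the authors' deposited table, with 12 of each after centring. Over all genes tested that table called 37.4% higher and 35.7% lower. Cd36, which takes up oxidised lipoprotein, stood at 20.7 FPKM in CON, 176 FPKM in LPS and 274 FPKM in ProNa, Lgals9, galectin 9, at 34.9 FPKM in CON, 139.9 FPKM in LPS and 234 FPKM in ProNa, and Lrp1, a large endocytic receptor, at 583 FPKM in CON, 276 FPKM in LPS and 324 FPKM in ProNa. Markers of alternative activation were mostly too low to test, and 10 of 22 passed: 5 were higher, 3 lower and 2 not called by the authors' deposited table. Cd274, the ligand of the inhibitory receptor PD-1, stood at 2.35 FPKM in CON, 50.4 FPKM in LPS and 66.4 FPKM in ProNa, and Il4ra, the interleukin 4 receptor, at 0.247 FPKM in CON, 6.44 FPKM in LPS and 3.63 FPKM in ProNa. Ppard, Tgm2 and Il10ra were the others higher, and Mrc1, Vegfb and Klf4 were lower. Phagocyte oxidase and antimicrobial genes gave 12 higher and 5 lower of 18 by the authors' deposited table (median 1.73). Slc11a1, which pumps metal ions out of the phagosome, stood at 59.9 FPKM in CON, 362 FPKM in LPS and 353 FPKM in ProNa. Those lower were Cybb and Ncf1, subunits of the oxidase, with Lyz1, Lyz2 and Cst3.

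Stress responses were high in both treated groups, and lower in ProNa than in LPS. Of 36 genes of the integrated stress response and the unfolded protein response 31 were higher and 2 lower in ProNa than in CON by the authors' deposited table (median log2 change of 1.58), beside 2.05 in LPS. In ProNa against LPS 29 were called lower and 1 higher by the authors' deposited table, where 15% of all genes tested were lower, and the median was -0.40. Hspa5, the main chaperone of the endoplasmic reticulum, stood at 318 FPKM in CON, 3073 FPKM in LPS and 1719.7 FPKM in ProNa. Herpud1, of the degradation machinery there, stood at 26.9 FPKM in CON, 219 FPKM in LPS and 91.8 FPKM in ProNa, and Ddit3, the transcription factor CHOP, at 17.7 FPKM in CON, 503 FPKM in LPS and 247 FPKM in ProNa. Trib3, a target of ATF4, stood at 5.97 FPKM in CON, 94 FPKM in LPS and 57.6 FPKM in ProNa. Psat1, an enzyme of serine synthesis, was the member called higher than in LPS.

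Antioxidant genes under NRF2 and genes of haem and iron were higher for 30 of 36 members and lower for 4 by the authors' deposited table (median log2 change of 1.99). Srxn1, which repairs peroxiredoxins, stood at 15.8 FPKM in CON, 519 FPKM in LPS and 456 FPKM in ProNa, Slc7a11, the cystine importer, at 4.13 FPKM in CON, 350.2 FPKM in LPS and 265 FPKM in ProNa, and Sqstm1, the autophagy receptor p62, at 230.4 FPKM in CON, 5174 FPKM in LPS and 3652 FPKM in ProNa. Those lower were Nfe2l2, Mgst1, Gstm1 and Hmgb1. Of 27 genes of glycolysis and the hypoxia response 16 were higher and 6 lower by the authors' deposited table, and 13 and 8 after centring. Over the 12740 genes tested that table called 37.4% higher and 35.7% lower, and after centring 3395 were higher and 6227 lower. By the ratio of mean FPKM the median log2 change of the glycolysis list was 0.008. Slc2a1, the glucose transporter GLUT1, stood at 34.9 FPKM in CON, 151 FPKM in LPS and 166 FPKM in ProNa, and Pgk1, phosphoglycerate kinase, at 712 FPKM in CON, 1464 FPKM in LPS and 2025 FPKM in ProNa. Of 35 lysosome genes 24 were higher and 7 lower by the authors' deposited table, and 18 and 13 after centring. Their median log2 change by the ratio of mean FPKM was 0.11. Ctsd, cathepsin D, stood at 631 FPKM in CON, 1764 FPKM in LPS and 1547 FPKM in ProNa, and Atp6v1h, a subunit of the proton pump, at 49.8 FPKM in CON, 232 FPKM in LPS and 208 FPKM in ProNa.

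Lipid synthesis stayed low. Of 26 genes of cholesterol synthesis and uptake 23 were lower and 2 higher in ProNa than in CON by the authors' deposited table (median log2 change of -1.13), beside -1.64 in LPS. In ProNa against LPS 18 were called higher and 0 lower by the authors' deposited table, where 17.5% and 15% of all genes tested were. Idi1, isopentenyl diphosphate isomerase, had a ProNa mean between CON and LPS, at 82.4 FPKM in CON, 9.6 FPKM in LPS and 18.6 FPKM in ProNa. Mvd, mevalonate decarboxylase, did not share that order, at 124 FPKM in CON, 16.5 FPKM in LPS and 11.1 FPKM in ProNa, and ProNa against LPS had no call in the authors' deposited table (adjusted p = 0.079). Sc5d and Insig1 were the members higher in ProNa than in CON by the authors' deposited table, at 0.26 and 0.32, with means of 64.3, 66.5 and 70.4 FPKM and 68.2, 64.6 and 61.9 FPKM in CON, LPS and ProNa, so that Insig1 was lower in FPKM. Among 23 targets of the sterol receptor LXR and genes of fatty acid synthesis 15 were lower and 6 higher by the authors' deposited table (median -1.92), and 16 and 3 after centring. Abcg1, which exports cholesterol, stood at 76.1 FPKM in CON, 4.9 FPKM in LPS and 6.85 FPKM in ProNa, and Scd1, stearoyl-CoA desaturase, at 95.2 FPKM in CON, 5.55 FPKM in LPS and 8.31 FPKM in ProNa. Plin2, the coat protein of lipid droplets, was higher, at 109 FPKM in CON, 900.0 FPKM in LPS and 849 FPKM in ProNa.

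Mitochondrial and ribosomal genes were mostly lower. Over the 12740 genes tested the authors' deposited table called 35.7% lower and 37.4% higher, and after centring 6227 were lower and 3395 higher. Of 29 genes of the citric acid cycle and pyruvate entry 19 were lower and 6 higher in ProNa than in CON by the authors' deposited table (median log2 change of -0.31), and after centring 25 were lower and 0 higher. By the ratio of mean FPKM 24 of those called were lower and 1 higher. Idh2, the mitochondrial isocitrate dehydrogenase, stood at 68.1 FPKM in CON, 17.5 FPKM in LPS and 10.8 FPKM in ProNa, and Mdh1, the cytosolic malate dehydrogenase, at 106 FPKM in CON, 13.4 FPKM in LPS and 15 FPKM in ProNa. Of 39 nuclear genes of the respiratory chain and ATP synthase 23 were lower and 7 higher by the authors' deposited table (median -0.28), and 33 and 3 after centring. In ProNa against LPS 18 of these were called higher and 0 lower, where 17.5% and 15% of all genes tested were. Atp5a1 stood at 424 FPKM in CON, 186 FPKM in LPS and 211 FPKM in ProNa, and Cycs, cytochrome c, was higher at 45.3 FPKM in CON, 51.8 FPKM in LPS and 63.5 FPKM in ProNa. Of 15 mitochondrially encoded transcripts 11 were lower and 2 higher by the authors' deposited table. Those higher were both ribosomal RNAs, mt-Rnr1 and mt-Rnr2. The mitochondrially encoded genes together made up 7.88% of summed FPKM in CON and 3.65% in ProNa, beside 3.63% in LPS. Of 54 cytosolic ribosomal proteins 36 were lower and 9 higher by the authors' deposited table, and 49 and 0 after centring, or 44 and 1 by the ratio of mean FPKM. Rpl3 stood at 542 FPKM in CON, 206 FPKM in LPS and 192 FPKM in ProNa. Ribosomal protein genes have many pseudogenes, and their values depend on how shared reads were split. Mitochondrial ribosomal proteins had 17 higher and 12 lower of 43 by the authors' deposited table, where 37.4% and 35.7% of all genes tested were. After centring 4 were higher and 21 lower, so the direction of that list was not stable.

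Genes of cell division stood lowest of all lists. All 54 mitosis and cytokinesis genes that passed were lower in ProNa than in CON by the authors' deposited table, 49 of them at least 4-fold (median log2 change of -4.27), beside -4.19 in LPS. Anln, anillin of the cleavage furrow, stood at 31.5 FPKM in CON, 1.55 FPKM in LPS and 0.893 FPKM in ProNa, and Ncapd2, of the condensin complex, at 36.1 FPKM in CON, 4.27 FPKM in LPS and 3.18 FPKM in ProNa. Of 44 genes of DNA replication and nucleotide supply 42 were lower and 1 higher by the authors' deposited table (median -2.44). Rrm1, a subunit of ribonucleotide reductase, stood at 53.6 FPKM in CON, 4.55 FPKM in LPS and 4.78 FPKM in ProNa. Mcm5 and Mcm6, of the replicative helicase, stood at 46, 0.993 and 1.83 FPKM and 54.9, 1.22 and 2.66 FPKM in CON, LPS and ProNa. Both were called higher in ProNa than in LPS by the authors' deposited table, at 1.20 and 1.52, and both stayed far below CON. The member above CON was Pola2, at 22 FPKM in CON, 31 FPKM in LPS and 30.3 FPKM in ProNa, and over reference transcripts alone it was lower, at 21.7, 21 and 19.1 FPKM.

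Repair genes had the same direction. Of 30 genes of homologous recombination and Fanconi repair 27 were lower and 1 higher by the authors' deposited table (median log2 change of -2.32). Rad54l stood at 16.5 FPKM in CON, 0.853 FPKM in LPS and 0.547 FPKM in ProNa and Msh6, of mismatch repair, at 27.6 FPKM in CON, 4.41 FPKM in LPS and 4.18 FPKM in ProNa. Fancc was the member that was higher, at 2.38 FPKM in CON, 3.43 FPKM in LPS and 3.09 FPKM in ProNa. In the list of G1 cyclins, CDK inhibitors and p53 targets 17 of 29 were lower and 11 higher by the authors' deposited table, where 35.7% and 37.4% of all genes tested were. Those higher included Plk2, a stress-induced polo-like kinase, at 2.38 FPKM in CON, 382 FPKM in LPS and 376 FPKM in ProNa, Gadd45a, a growth arrest gene, at 2.85 FPKM in CON, 102 FPKM in LPS and 55 FPKM in ProNa, and Mdm2, the ubiquitin ligase of p53, at 51.9 FPKM in CON, 119 FPKM in LPS and 105 FPKM in ProNa. Fewer dividing cells and less RNA per cell cannot be told apart in bulk samples.

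**Figure D2:**
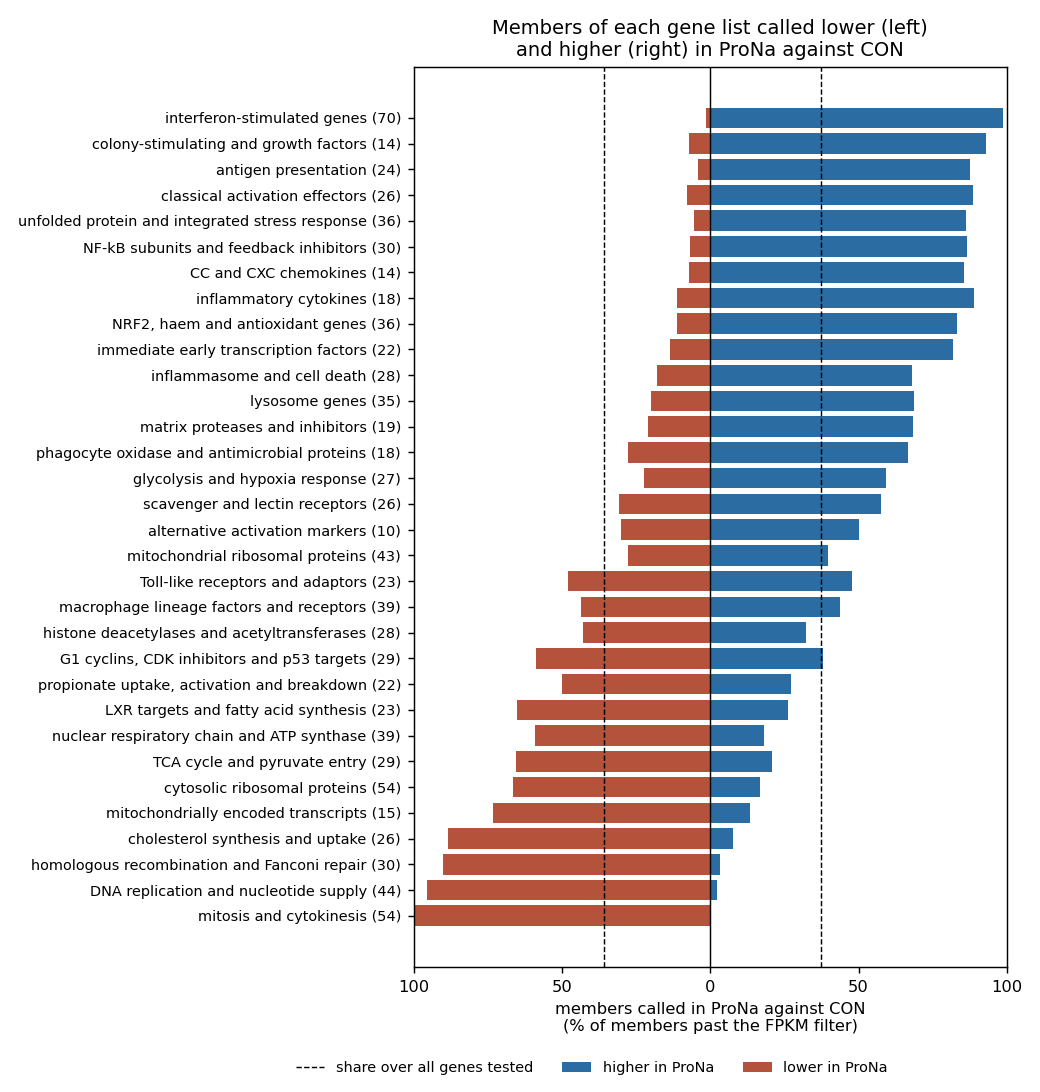
Share of the members of each gene list called higher (right, blue) and lower (left, red) in ProNa against CON by the authors' deposited table, in percent of the members that passed the FPKM filter, whose number stands in brackets. Dashed lines give the shares over all 12740 genes tested, 37.4% higher and 35.7% lower; interferon-stimulated genes lie at one end with 69 of 70 higher and mitosis genes at the other with 54 of 54 lower.

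Genes that handle propionate itself were examined as a list of 29, of which 22 passed. Of these 6 were higher and 11 lower in ProNa than in CON by the authors' deposited table (median log2 change of -0.23), and 3 were higher and 13 lower after centring. Among all genes tested that table called 37.4% higher and 35.7% lower. The receptors Ffar2 and Ffar3 and the carrier Slc5a8 are listed at 0 FPKM in all groups. Hcar2, a receptor for niacin and butyrate, stood at 7.05 FPKM in CON, 82.8 FPKM in LPS and 77.7 FPKM in ProNa. Of the acyl-CoA synthetases, Acss2 stood at 24 FPKM in CON, 11.5 FPKM in LPS and 28.1 FPKM in ProNa. Acss2 was the member called higher in ProNa than in LPS by the authors' deposited table, with a log2 fold change of 1.33 (adjusted p = 3.1e-38), and against CON it was not called (-0.07, interval -0.22 to 0.08). Acss1, Acss3 and Acsm3 lay under the filter. Pcca and Pccb, the subunits of propionyl-CoA carboxylase, went in opposite directions in the authors' deposited table, at 1.07 and -0.48 against CON. Over reference transcripts alone Pcca stood at 12.1, 13.2 and 11.1 FPKM in CON, LPS and ProNa. Mmut, methylmalonyl-CoA mutase, stood at 17.3 FPKM in CON, 8.33 FPKM in LPS and 7.43 FPKM in ProNa, and Mmab, which prepares its cofactor, at 15.6 FPKM in CON, 3.42 FPKM in LPS and 3.95 FPKM in ProNa. Pcca and the carrier Slc16a6 were the members called lower in ProNa than in LPS, at -0.23 and -0.32 in the authors' deposited table.

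Of 28 histone deacetylases, acetyltransferases and related readers 9 were higher and 12 lower in ProNa than in CON by the authors' deposited table, and 4 and 20 after centring, or 7 and 14 by the ratio of mean FPKM. The authors' deposited table called 37.4% of all genes tested higher and 35.7% lower, so before centring the shares of this list lay near these. After centring 3395 of the 12740 genes tested were higher and 6227 lower, so there the list was lower more often than all genes. Hdac9 stood at 12 FPKM in CON, 1.17 FPKM in LPS and 1.6 FPKM in ProNa, Hdac5 at 54.5 FPKM in CON, 15.1 FPKM in LPS and 16.3 FPKM in ProNa and Brd2, a reader of acetylated histones, at 95.9 FPKM in CON, 231 FPKM in LPS and 215 FPKM in ProNa. Hdac1 stood at 46.2 FPKM in CON, 40.5 FPKM in LPS and 59 FPKM in ProNa and was called higher in ProNa than in LPS by the authors' deposited table (0.67). Sirt6, an NAD-dependent deacetylase, stood at 18.2 FPKM in CON, 30.2 FPKM in LPS and 16.7 FPKM in ProNa, with -0.75 against LPS.

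The label of the cells was checked against markers. Of 8 macrophage markers, Csf1r, Lyz2, Itgam and Cd68 were called lower in ProNa than in CON by the authors' deposited table, Adgre1, Spi1 and Ptprc higher, and Mpeg1 was not called. Cd68 stood at 884, 823 and 631 FPKM and Ptprc, the leukocyte antigen CD45, at 87, 61.4 and 75.8 FPKM in CON, LPS and ProNa. The changes of Cd68 (-0.12) and Ptprc (0.26) in the authors' deposited table are small, and in mean FPKM Ptprc was lower. Of 15 epithelial markers 0 passed the filter, and their summed level was 0.18 FPKM in CON, 0.18 FPKM in LPS and 0.10 FPKM in ProNa. Other lists had 1 member each that passed for fibroblasts and smooth muscle (Acta2, 0.947, 13.7 and 17.6 FPKM), lymphocytes (Il7r, 1.75, 14.8 and 8.55 FPKM) and neutrophils and erythroid cells (S100a8). Endothelial markers had 3, of which Plvap was called, at 80.8, 236 and 229.7 FPKM, and Vwf and Egfl7 were not. Over reference transcripts alone Acta2 reached 0.61 FPKM and Plvap 0.037 FPKM at most. The part of other cells in these single genes was not tested.

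The LPS samples show which changes from CON were kept when ProNa came first. Among 12670 genes with a mean of at least 0.5 FPKM over the 3 groups, 1725 were called and at least 4-fold from CON in LPS by the authors' deposited table, 884 higher and 841 lower. Over the 12804 genes tested for LPS against CON at their own filter, 70.7% were called, 13.7% at least 4-fold, 6.72% higher and 6.94% lower. In ProNa 1443 of the 1725 (83.7%) were called and at least 4-fold from CON in the same direction. Of the genes higher in LPS 763 were kept (86.3%) and of those lower 680 (80.9%), where 14% of all genes tested were at least 4-fold from CON in ProNa. A further 220 lay 2-fold to 4-fold from CON, 21 lay under 2-fold, and the remaining 41 had no call or lay on the other side of CON. The comparisons share the CON samples, so a deviation in those samples enters both, and the count is a description.

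**Figure D3:**
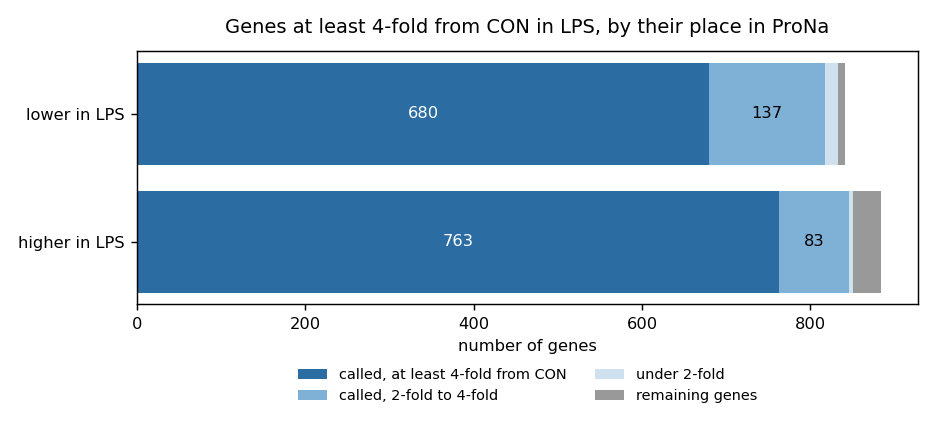
Number of genes called at least 4-fold from CON in LPS, split by direction in LPS (rows) and by their distance from CON in ProNa (colours). The dark part is the genes still called at least 4-fold from CON in the same direction, 763 of 884 higher and 680 of 841 lower genes.

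Some of the 1725 genes, kept or not, also differed between ProNa and LPS. Of the 1725 genes 1508 had an adjusted p in ProNa against LPS. By the authors' deposited table, 377 of these had moved toward CON, 237 away from it, and 894 were not called, where 32.5% of all genes tested were called. For genes higher in LPS, 230 had moved toward CON and 215 away. For genes lower in LPS, 147 had moved toward CON and 22 away, and 189 of those 841 had no adjusted p, against 28 of the 884 higher ones. The genes were chosen by the LPS samples that this comparison shares, and a gene near 0 cannot fall much further, so these counts are a description. At least 2-fold shifts were rarer. They went toward CON for 41 and away for 73 of the genes higher in LPS, and toward CON for 52 and away for 5 of the lower ones, and over all genes tested 3.09% were at least 2-fold apart between ProNa and LPS. The median log2 fold change of the 884 higher genes was 3.25 in LPS and 3.35 in ProNa, and that of the 841 lower genes was -2.93 and -2.83.

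**Figure D4:**
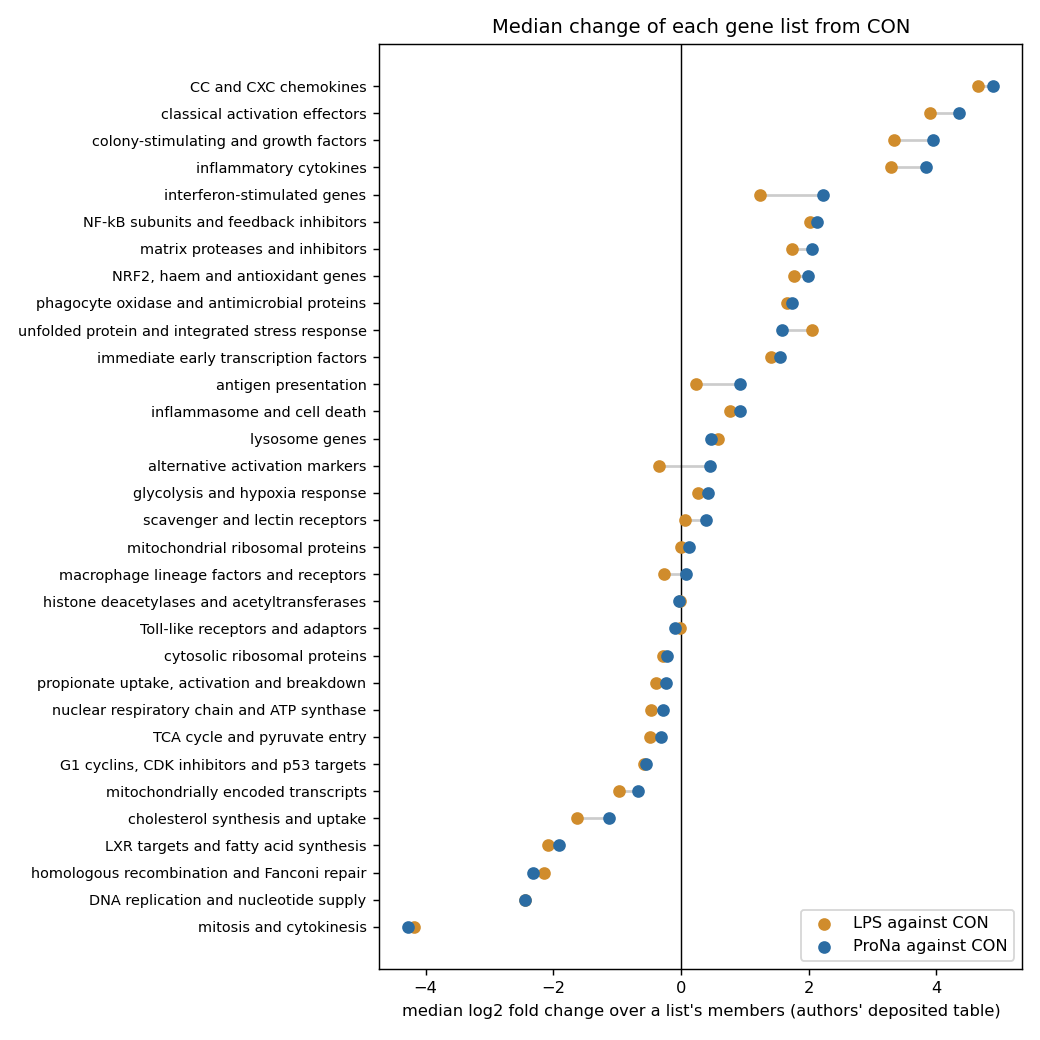
Median log2 fold change from CON over the members of each gene list, in LPS (orange) and in ProNa (blue), from the authors' deposited table; no errors are drawn, since the members are not replicates. The points of interferon-stimulated genes lie at 1.24 and 2.22, those of the stress responses (unfolded protein and integrated) at 2.05 and 1.58, and those of mitosis at -4.19 and -4.27.

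Return to the level of CON was rare. Of the 1725 genes 4 lay within 1.5-fold of CON in ProNa and were called in the opposite direction in ProNa against LPS by the authors' deposited table: Ms4a6c, Rpl35a-ps2, Adgb and Adam33. All 4 had been lower in LPS. By the plain ratio of mean FPKM 2 of the 4 lay within 1.5-fold of CON. With every fold taken from the ratio with a pseudocount of 0.5, and the calls still those of the authors' deposited table, the count was 1. Ms4a6c, a membrane protein of the MS4A family found in macrophages, stood at 33.6 FPKM in CON, 4.43 FPKM in LPS and 16.9 FPKM in ProNa. It was still called lower than CON in the authors' deposited table, with a log2 fold change of -0.44 (interval -0.66 to -0.22), and ProNa against LPS gave 1.98. Adam33, a membrane metalloprotease, stood at 2.36 FPKM in CON, 0.553 FPKM in LPS and 1.74 FPKM in ProNa, and Adgb, androglobin, at 1.52 FPKM in CON, 0.25 FPKM in LPS and 0.717 FPKM in ProNa. Against CON neither was called, with intervals of -0.86 to 0.36 for Adam33 and -1.13 to 0.06 for Adgb. Rpl35a-ps2 is a pseudogene whose reads can be shared with Rpl35a, and its interval against CON of -1.40 to 1.41 is wide.

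By the log2 fold changes of the authors' deposited table, 13 genes lay within 2-fold of CON, and 5 of them did so by mean FPKM. Another 7 genes of the 13, with a settled symbol, were named after their values were seen. Siglec1, the sialic acid receptor sialoadhesin of macrophages, stood at 32.4 FPKM in CON, 4.8 FPKM in LPS and 14.9 FPKM in ProNa. Cybb and Ncf1, the catalytic subunit of the phagocyte oxidase and its p47 organiser, stood at 524 FPKM in CON, 89 FPKM in LPS and 204 FPKM in ProNa and at 304, 58.7 and 117 FPKM in the same order. In mean FPKM these 3 genes lay more than 2-fold below CON. Over reference transcripts alone Siglec1 stood at 7.46, 1.08 and 4.17 FPKM in CON, LPS and ProNa, so there it lay within 2-fold of CON. Against CON all 3 genes were still lower in the authors' deposited table, at -0.72 for Siglec1, -0.94 for Cybb and -0.94 for Ncf1. The others were Itpr1, Plekha4 and Npl, lower in LPS, and Slc43a3, which stood at 3.7 FPKM in CON, 12.8 FPKM in LPS and 5.2 FPKM in ProNa.

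A wider return appeared among genes that LPS had moved less. Of 4136 genes called and at least 2-fold from CON in LPS (32.6% of all genes tested at their own filter), 106 (2.56%) lay within 1.5-fold of CON in ProNa with the opposite call against LPS in the authors' deposited table. They were 45 of 2129 genes higher in LPS (2.11%) and 61 of 2007 lower (3.04%). By mean FPKM 67 of the 106 lay within 1.5-fold of CON. The 12 that belong to a gene list included Clec5a, Acss2, Plau, Timeless, Tnip3, Ctsc and Msmo1, lower in LPS, and Sirt6, Colec12 and Gpnmb, higher in LPS. Clec5a, a lectin receptor of myeloid cells that pairs with DAP12, stood at 234 FPKM in CON, 70.5 FPKM in LPS and 207 FPKM in ProNa, and its interval against CON in ProNa was -0.17 to 0.02. Plau, the urokinase protease, stood at 29.3 FPKM in CON, 10 FPKM in LPS and 22.8 FPKM in ProNa (interval -0.15 to 0.23), and Tnip3, an inhibitor of NF-kB signalling, at 72.8 FPKM in CON, 27.6 FPKM in LPS and 58.5 FPKM in ProNa (interval -0.15 to 0.09). Ctsc, cathepsin C, stood at 88.2 FPKM in CON, 33.6 FPKM in LPS and 59.3 FPKM in ProNa (interval -0.28 to -0.06). Like Ctsc, Msmo1 and Timeless were still called lower than CON, with intervals of -0.63 to -0.39 and -0.52 to -0.14. By mean FPKM Msmo1 and Timeless lay more than 1.5-fold below CON. On the higher side Gpnmb, a glycoprotein of stressed lysosomes, stood at 119 FPKM in CON, 213 FPKM in LPS and 128 FPKM in ProNa. Colec12, a scavenger collectin, stood at 116 FPKM in CON, 208 FPKM in LPS and 117 FPKM in ProNa. Both were still called higher than CON in the authors' deposited table, with intervals of 0.46 to 0.64 and 0.31 to 0.46. Further genes of this kind, named after their values were seen, were Il1rl1, the interleukin 33 receptor, at 7.77 FPKM in CON, 2.11 FPKM in LPS and 6.79 FPKM in ProNa, Cd72 (-0.40 against CON in the authors' deposited table, and further off by its means) at 508 FPKM in CON, 96.8 FPKM in LPS and 240.1 FPKM in ProNa, Ly6e at 1349.7 FPKM in CON, 467 FPKM in LPS and 905 FPKM in ProNa, and Ptafr, the receptor for platelet-activating factor, at 7 FPKM in CON, 13.4 FPKM in LPS and 5.42 FPKM in ProNa.

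Some genes left CON in ProNa and not measurably in LPS. Of 11982 genes with values in all comparisons, 47 were called and at least 2-fold from CON in ProNa, had no call in LPS against CON, and were called at least 2-fold from LPS in the same direction by the authors' deposited table. With folds from the ratio of mean FPKM with a pseudocount of 0.5, and the same calls, the count was 25, of which 17 were higher. The 47 were 37 higher and 10 lower, 39 had a settled symbol, and 13 had a mean of 10 FPKM or more. The 10 with the largest fold were BX322625.1, Malrd1, Cd5l, Rgcc, AC125149.5, BC049352, Phf11, Cd200r3, Phf11a and Tmem25, all higher. Rgcc, a regulator of the cell cycle that responds to complement, stood at 1.65 FPKM in CON, 2.51 FPKM in LPS and 14.4 FPKM in ProNa, and in the authors' deposited table its log2 fold change was 3.52 against CON (interval 2.95 to 4.10), 0.87 for LPS against CON (adjusted p = 0.14), and 2.66 against LPS. Cd5l, a secreted scavenger protein of macrophages, stood at 0.33 FPKM in CON, 0.617 FPKM in LPS and 2.96 FPKM in ProNa, and Cd200r3, a receptor of the CD200 family, at 0.613 FPKM in CON, 0.667 FPKM in LPS and 3.09 FPKM in ProNa. Phf11 and Phf11a belong to a cluster of close copies, so reads may be split among them. They stood at 1.35, 2.11 and 7.26 FPKM and 1.8, 1.63 and 7.2 FPKM in CON, LPS and ProNa. Tmem25 and Malrd1 reached 1.28 and 1.94 FPKM. Over reference transcripts alone BX322625.1, AC125149.5 and Phf11 are listed at 0 in all groups, Malrd1 reached 0.03 FPKM in ProNa and BC049352 0.18 FPKM, so the values of these 5 genes rest on assembled transcripts.

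More abundant members of the 47 were picked out after their values were seen. Samhd1, which destroys the nucleotides that viruses need, stood at 164 FPKM in CON, 183 FPKM in LPS and 376 FPKM in ProNa. Trex1, a nuclease that clears cytosolic DNA, stood at 118 FPKM in CON, 107 FPKM in LPS and 219.8 FPKM in ProNa, and Mov10, an RNA helicase, at 25.5 FPKM in CON, 20.5 FPKM in LPS and 43.6 FPKM in ProNa. Ube2l6, the conjugating enzyme for ISG15, stood at 67.2 FPKM in CON, 49.4 FPKM in LPS and 122 FPKM in ProNa, and Il15, a cytokine for natural killer cells, at 6.37 FPKM in CON, 7.51 FPKM in LPS and 12 FPKM in ProNa. Ifi44 and Slfn8 of the interferon-stimulated list also belong here. Outside that group Actb, cytoplasmic actin, stood at 1982 FPKM in CON, 1565 FPKM in LPS and 2993 FPKM in ProNa, Anxa1, the annexin that damps inflammation, at 204 FPKM in CON, 165 FPKM in LPS and 340.1 FPKM in ProNa, and Ctsk, cathepsin K, at 8.59 FPKM in CON, 8.19 FPKM in LPS and 24.7 FPKM in ProNa. By their mean FPKM Trex1, Mov10, Ube2l6, Il15, Ifi44, Actb and Anxa1 lay under 2-fold from CON in ProNa, and Samhd1 and Ctsk lay over it. In the authors' deposited table the log2 fold change of ProNa against CON was 1.00 for Actb, 1.15 for Anxa1 and 1.93 for Ctsk, beside -0.07, -0.03 and 0.23 for LPS against CON.

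**Figure D5:**
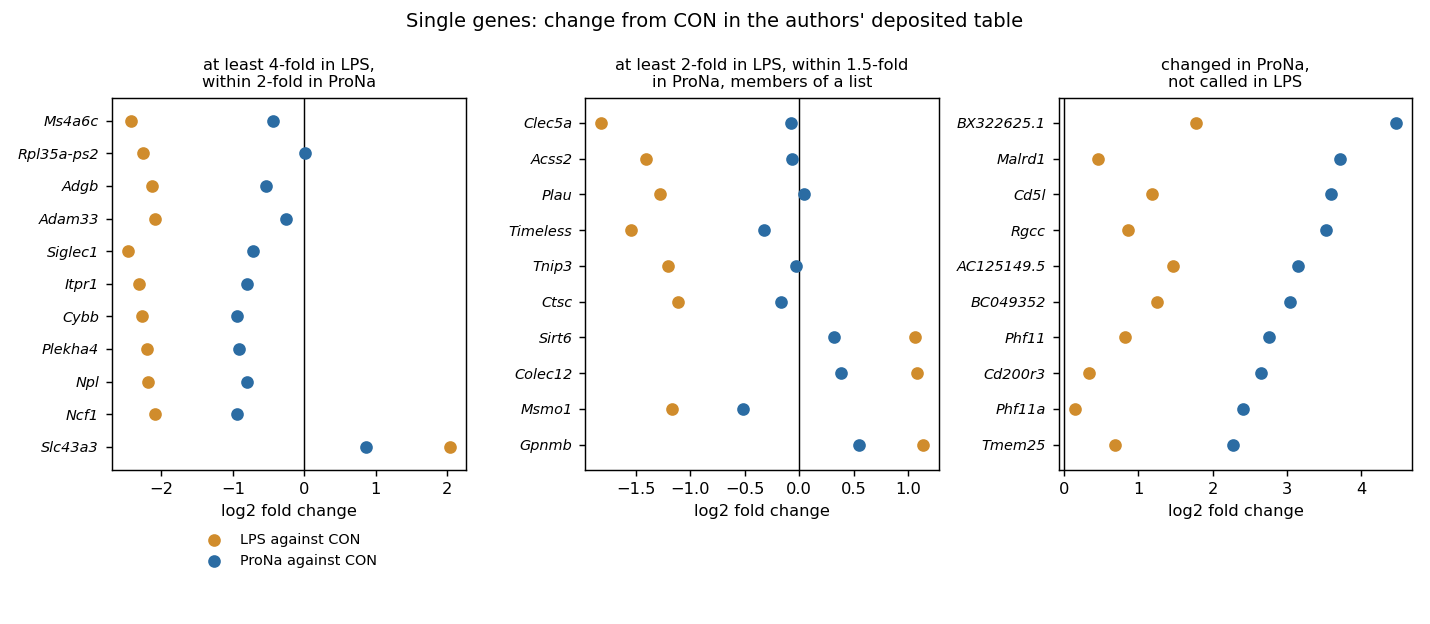
Log2 fold change from CON in LPS (orange) and in ProNa (blue), from the authors' deposited table, for genes at least 4-fold from CON in LPS and within 2-fold in ProNa (left), 10 list members at least 2-fold in LPS and within 1.5-fold in ProNa (middle), and the 10 leading genes changed in ProNa without a call in LPS (right). Blue points lie nearer to the line at 0 than orange ones in the left and middle panels and farther from it in the right panel, as the choice of the genes requires.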

How the data were processed

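RNA of 9 samples of RAW264.7 cells was sequenced by the submitters, 3 each titled CON, LPS and ProNa. Per the submitters' processing notes, HISAT2, StringTie, DESeq2 and build GRCm39 were used; versions are not given in the sources used here. Of 3 files 2 were used. The first is a table of transcripts in FPKM, per the file headers; the authors' means of each group come from its columns CON, LPS and ProNa. Another 9 columns, with values of single libraries, carry names found in no label and were left out throughout. The authors' deposited table lists per gene the p-value, raw and adjusted, and the log2 fold change of 3 comparisons, per the file headers. How many libraries entered each test is unknown. The annotation file was not used.

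FPKM were summed here over the transcripts of a gene, 153363 transcripts in all, of which 12638 were assembled by StringTie. For 81 symbols with several identifiers the one with the highest mean was taken. The deposited adjusted p-values were matched by a Benjamini-Hochberg correction over 18540 genes in ProNa against CON, 17795 in LPS against CON and 12732 in ProNa against LPS. An adjusted p listed at exactly 1 lies outside it and was treated as missing. Genes with a mean of at least 0.5 FPKM over the groups compared were kept, 12851 for ProNa against CON, of which 111 had no adjusted p. Ratios of FPKM used a pseudocount of 0.5 and so understate changes of low genes. The limma fit planned for values per library was not run, and the authors' table took its place. Counting steps were tested on simulated data.

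The comparison and the 37 gene lists (1118 entries) were chosen with earlier results of these data known. The text names the markers, the 10 highest and 10 lowest genes by FPKM ratio, up to 4 members of each list by adjusted p, the members of counts of 5 or fewer, up to 10 genes each that returned to CON or changed in ProNa without a call in LPS, the 10 most abundant genes, and the 5 largest rises and drops in FPKM; genes added after their values were seen are also named where they illustrate a list. Some genes that the rule names are not reported here. No set test was run. FPKM is relative, so a rise of some abundant transcripts lowers the values of the rest. Whether counting used strand is unknown, and reads of genes overlapping in opposite orientation may be mixed. Promoter windows are from RefSeq (GRCm38.p6), another build than that of the files, matched by symbol, with 9253 of 12730 tested symbols found and the window farthest upstream used; coordinates of the files were not printed. Python 3.11.15, pandas 2.3.3, numpy 2.4.6, scipy 1.17.1 and matplotlib 3.10.9 were used.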

Additional observations from a re-analysis of the deposited data

How the results depend on the processing

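The count of genes changed between ProNa and CON kept to within 1.5 times its value of 9311 under every alternative run, as did the number of lists with more members higher than lower (18, and 16 to 21 under the alternatives). The alternatives by the FPKM ratio took only the size and direction of a change from that ratio and kept the deposited calls. The count of 9311 therefore could not change under them. The 1443 genes that stayed far from CON became 740 at a mean of at least 5 FPKM, 835 by the FPKM ratio with a pseudocount of 1, 3493 with 2-fold in place of 4-fold and 764 with 8-fold. The share of far genes that was kept lay between 77.9% and 85.5%. The 4 genes that returned to CON became 8 with no filter on FPKM, 2 at a mean of at least 5 FPKM, 1 by the FPKM ratio with a pseudocount of 0.5 and 1 with 0.1, 2 with a pseudocount of 1, 13 within 2-fold of CON and 106 from at least 2-fold in LPS. With fold changes centred by their median difference from the FPKM ratio, an alternative chosen after seeing the data, there were 2. The 47 genes changed in ProNa without a call in LPS became 18 at a mean of at least 5 FPKM, 25 by the FPKM ratio with a pseudocount of 0.5 and 19 with 1, and 169 with 1.5-fold in place of 2-fold. These thresholds change which genes can be counted; the cause of the shifts with the FPKM ratio was not tested. Among mitochondrial ribosomal proteins the members called higher less those called lower, 5 as deposited, came to -17 after centring by the difference of the medians, to -9 by the FPKM ratio with each of the 3 pseudocounts, and to -21 with the centring by the median difference. Rplp1 turned to -0.23 and -0.28 under the centring by the difference of the medians and by the median difference per gene, without a call in the deposited table; the cause was not tested. No paired analysis was possible because the deposited columns carry no replicate number of the labels. The limma fit, the fits without single replicates and the fit with the replicate number as a block were not run for the same reason. Depth is unknown, and low genes were called less often (47.5% at 0.5 to 2 FPKM).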
